A study of Homo sapiens with 4 samples.

Results

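The imprinted region that runs from SNRPN to UBE3A on chromosome 15 was examined in a map of the RNA bound by FLAG-tagged ZFR, a zinc finger protein of the DZF family. Its members were the peaks lying wholly between positions 25060000 and 25690000 of the hg19 build, a window of 630 kb chosen by position and split by strand. The window held 94 of the 595484 peaks listed in the 4 libraries, 91 of them on the minus strand and 3 on the plus strand. eCLIP recovers RNA fragments crosslinked by ultraviolet light to an immunoprecipitated protein, and a size-matched input is made from the same gel region without the immunoprecipitation. Both groups were HEK-293 Flp-In TREx cells, a line derived from human embryonic kidney, with FLAG-ZFR integrated at an FRT site; the cells were polyclonal, and doxycycline (1 µg/mL, 48 to 72 h) switched on the transgene before crosslinking at 400 mJ/cm2. The 2 eCLIP libraries and the 2 size-matched inputs were each numbered 1 and 2. The inputs came from cells that carried the same transgene. The labels do not give separate cultures for the libraries of a group, so the spread between them may be technical.

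SNRPN encodes SmN, a core protein of spliceosomal ribonucleoprotein particles, and is transcribed from the paternal copy of the chromosome. Downstream of it, on the same plus strand, a long noncoding host transcript carries the box C/D small nucleolar RNAs SNORD116 and SNORD115 in its introns, and in neurons it extends as an antisense RNA over UBE3A. UBE3A, on the minus strand, encodes a ubiquitin ligase. It is expressed from the maternal copy in neurons and from both copies in most other cells. Loss of the paternal transcripts underlies Prader-Willi syndrome and loss of maternal UBE3A underlies Angelman syndrome. The RefSeq table lists 30 genes named as SNORD116 copies and 48 named as SNORD115 copies on chromosome 15. Peak lists do not separate the parental copies, and the sequence under the peaks was not analysed here.

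The lists differed greatly in length. After repeats of one interval under several genes were removed, they held 458932 and 39168 peaks in eCLIP 1 and eCLIP 2, against 60227 and 10483 peaks in input 1 and input 2. Those peaks held 2944100 and 216406 reads for eCLIP, against 238392 and 98185 reads for input. Reads are the whole number that ends each peak's name, at least 3, a reading the files do not state. The sequencing depth is unknown, so values are given as shares of each library's peaks or of its reads in peaks.

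On the plus strand almost no peak was listed. eCLIP 1 held 2 peaks and eCLIP 2 held 0, against 1 peak in input 1 and 0 in input 2. The 2 peaks of eCLIP 1 touched each other and formed 1 site, chr15:25155653-25155682, with 3 reads in each interval and p-values of 0.0192 and 0.0195. These p-values, like all those of single peaks given here, are the authors' deposited values. Both intervals carry the identifier ENSG00000128739.16. The single peak of input 1 lay at chr15:25381641-25381655, with 4 reads and a p-value of 0.00368, and it was 225958 bases from the eCLIP 1 site. The plus-strand peaks thus fell in different parts of the window in the 2 libraries that had any: of 7 equal segments of 90 kb, the second held 100% of those of eCLIP 1 and the fourth held 100% of those of input 1.

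No plus-strand peak of any library lay opposite the minus-strand peaks. The last plus-strand peak and the first minus-strand peak were 201525 bases apart, so an antisense transcript over UBE3A had 0 listed peaks in the 4 libraries. A list of called peaks does not show whether such an RNA was present below the caller's threshold. Other stretches of chromosome 15 were richer on this strand in eCLIP 1. Of 107 stretches of 630 kb with a plus-strand peak in any library, the median held 42 peaks of eCLIP 1, and 15 stretches (14.0%) held 2 or fewer.

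**Figure D1:**
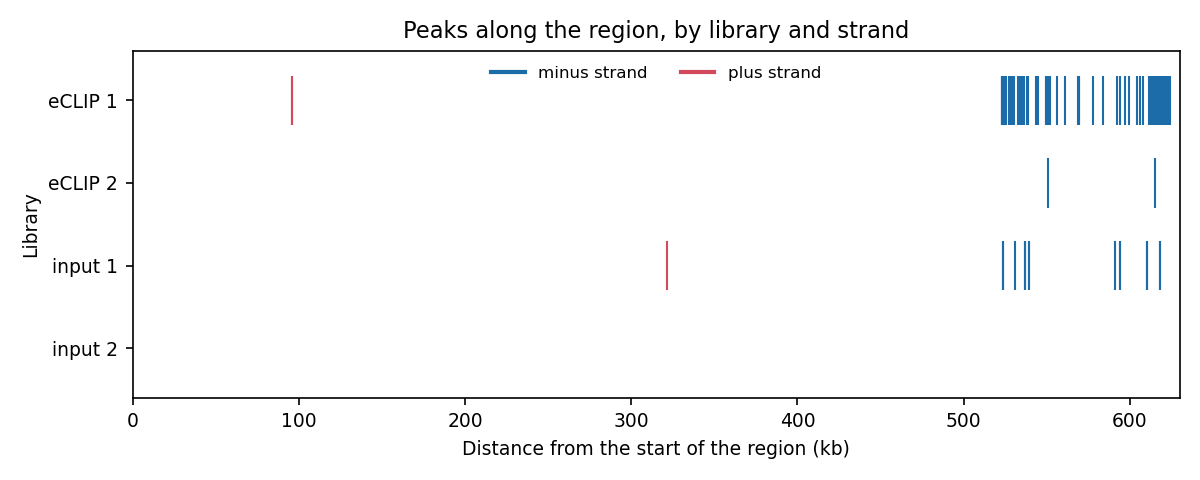
Position of every peak of the window, in kb from its start, with 1 row per library and minus-strand peaks in blue and plus-strand peaks in red. The 91 minus-strand peaks lie in the last part of the window, and the 3 plus-strand peaks form isolated marks in eCLIP 1 and input 1.

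The minus strand held nearly all of the peaks. There were 75 in eCLIP 1 and 2 in eCLIP 2, against 14 in input 1 and 0 in input 2. Every one of the 91 carried the same gene identifier, ENSG00000114062.13, and they ran over 100.895 kb from position 25583181 to position 25684075. The strand and window are those of UBE3A in the definition of the region. The files pair no name with the identifier. The reference table of 59792 genes could give none, since 0 of its genes carry an Ensembl identifier.

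As a share of all peaks, the minus strand took 1.63 per 10000 (95% Wilson interval 1.30 to 2.05) in eCLIP 1 and 0.511 (0.140 to 1.86) in eCLIP 2, against 2.32 (1.38 to 3.90) in input 1 and 0 (0 to 3.66) in input 2. The intervals cover counting error only. The shares of the groups overlapped, and the interval of input 2 covers both eCLIP shares, so its 0 does not rank it below them. The shares averaged 1.07 ± 0.795 per 10000 in eCLIP and 1.16 ± 1.64 per 10000 in input (SD, n = 2 each). On the log2 scale, with 0.5 added to each share, eCLIP minus input was 0.31, with p = 1 in a two-sided exact permutation test over the 4 libraries, in which the smallest possible p is 0.33. Without input 2 the difference was -0.94 and without eCLIP 1 it was -0.23, so 1 library decided its sign. The plus-strand difference, between shares of 0.0436 and 0 in eCLIP and 0.166 and 0 in input, was -0.15 with the same p, and it was 0.06 without input 1.

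By reads in peaks, the 2 eCLIP libraries were close to each other. The minus-strand peaks held 309 and 21 reads in eCLIP 1 and eCLIP 2, against 45 and 0 reads in input 1 and input 2. That was 1.05 and 0.970 per 10000 reads in the eCLIP libraries, against 1.89 and 0 in the inputs. The eCLIP 2 value rests on 2 peaks, and most of its reads, 15, lay in 1 peak that eCLIP 1 did not list. By peaks the eCLIP shares were 1.63 and 0.511, so the closeness by reads does not show that these libraries agree. The eCLIP values lay between those of the inputs, and the exact permutation test again gave p = 1 (n = 2 each).

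Across all genes, limma compared log2 shares of peaks over the 4 libraries for the 8914 identifiers with at least 10 peaks. The minus-strand identifier was the 1 of the window that entered the fit, and it was not called: its log2 difference of eCLIP minus input was 0.31 (SE 0.91), with an adjusted p of 0.994. That difference is the same quantity as the difference of shares above, since every minus-strand peak of the window carries this identifier. The share of all genes called was 0% in either direction. Before adjustment, at 0.05, there were 111 higher and 62 lower genes, 1.94% of those tested, and the identifier was not among them. The eCLIP shares both exceeded the input shares in 21.0% of genes and both fell short of them in 10.3%, and this gene belonged to neither set.

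The order of the libraries was another one among the peaks with the better p-values. At a limit of 0.001, 8 minus-strand peaks were left in eCLIP 1 and 2 in eCLIP 2, against 0 in input 1 and 0 in input 2. The shares were 0.755 (0.383 to 1.49) and 2.32 (0.637 to 8.47) per 10000 such peaks in eCLIP, against 0 (0 to 5.06) and 0 (0 to 12.6) in the inputs. The values of the groups did not overlap, but the zeros come from lists of 7590 and 3053 peaks, and their counting intervals cover both eCLIP shares. Of 3334 genes tested at this limit, 32.0% likewise had eCLIP shares that both exceeded those of the inputs. The log2 difference was 1.91 (SE 0.61), and limma did not call it (adjusted p = 0.185). At this limit limma called 0% of genes in either direction. Before adjustment 21.9% of them passed 0.05, and this gene was among those. All of its peaks at this limit came from the eCLIP libraries, so it entered the fit through them alone. Genes were selected on peaks summed over lists of 105980 and 8608 peaks in eCLIP, against 7590 and 3053 in the inputs. The selection thus leaned on eCLIP 1, and the 32.0% and 21.9% describe genes chosen in that way. Passing before adjustment therefore does not set this gene apart.

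**Figure D2:**
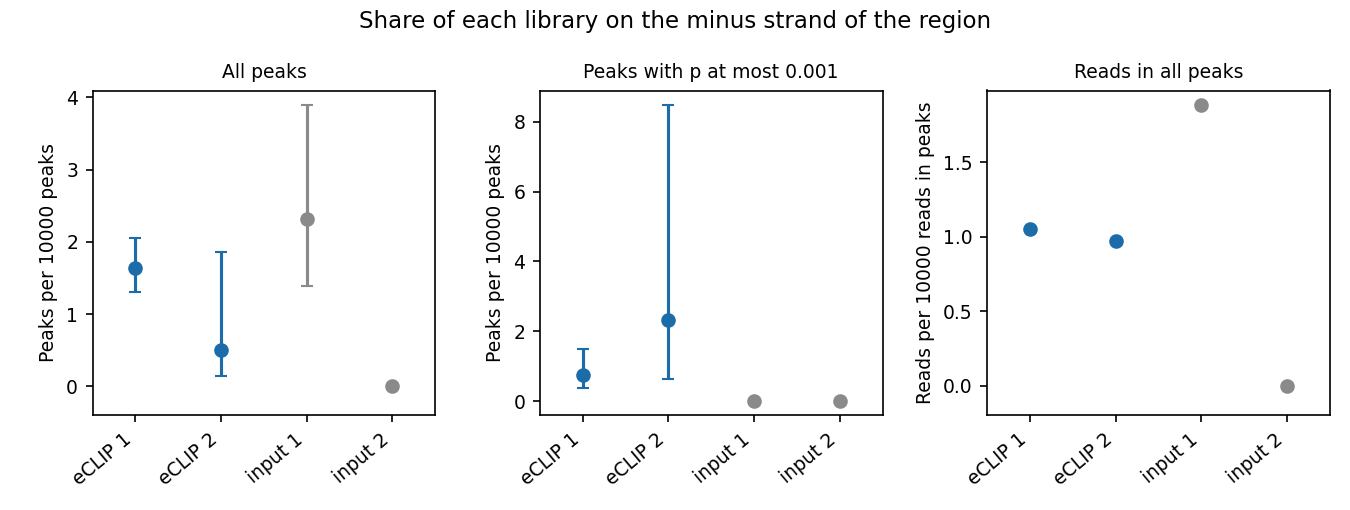
Share of each library that lay on the minus strand of the window, as peaks per 10000 peaks for all peaks (left) and for peaks with a p-value of at most 0.001 (middle), and as reads per 10000 reads in peaks (right); bars are 95% Wilson intervals, drawn where a library had a peak. Input 1 is highest over all peaks and input 2 is at 0, and both inputs are at 0 among the peaks with the better p-values.

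The peaks of eCLIP 1 were weak. Of the 75, 26 held 3 reads, 30 held 4 reads, 10 held 5 reads and 9 held 6 to 9 reads. Peaks of 3 reads made up 34.7% of them, close to the 32.2% of the whole eCLIP 1 list. A p-value of at most 0.001 was less frequent than in the list, at 10.7% of the window's peaks against 23.1%, which was not tested. Their median width was 25 bases, against 28 bases over the list. In input 1, 11 of the 14 minus-strand peaks held 3 reads and the other 3 held 4, and their p-values lay between 0.00374 and 0.0207. Input 1 also listed many of its sites in pieces: 6 of the 14 intervals touched the next one, and with touching intervals merged the 14 became 8, while the 75 of eCLIP 1 became 72. Over the whole minus strand 39.6% of input 1 intervals touched the next one, against 0.902% of those of eCLIP 1.

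The peak with most reads in eCLIP 1 lay at chr15:25587942-25588011 and held 9 reads, with a p-value of 3.6e-05. As many reads or more were held by 13.0% of the peaks in that list. The peak with the lowest p-value, 2.45e-05, lay at chr15:25595416-25595450 and held 8 reads. Both are toward the 3′ end of the span. Toward the 5′ end, the peaks with most reads were chr15:25683366-25683401 and chr15:25673166-25673226, with 7 reads each.

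The 2 peaks of eCLIP 2 ranked higher in their own list. The peak at chr15:25674889-25674946 held 15 reads with a p-value of 1.05e-13, and 3.12% of the peaks in eCLIP 2 held as many reads or more. The peak at chr15:25610634-25610672 held 6 reads with a p-value of 0.000135. Neither met a peak of eCLIP 1. The first was 61 bases from a peak of eCLIP 1 with 4 reads, chr15:25674788-25674827, and the second was 298 bases from another with 4 reads, chr15:25610304-25610335. In input 1 the nearest peaks were 3212 and 11072 bases away. The site with most reads in the window was thus listed in 1 library of 4, and eCLIP 1, although its list held far more reads in peaks, listed 0 peaks on it.

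**Figure D3:**
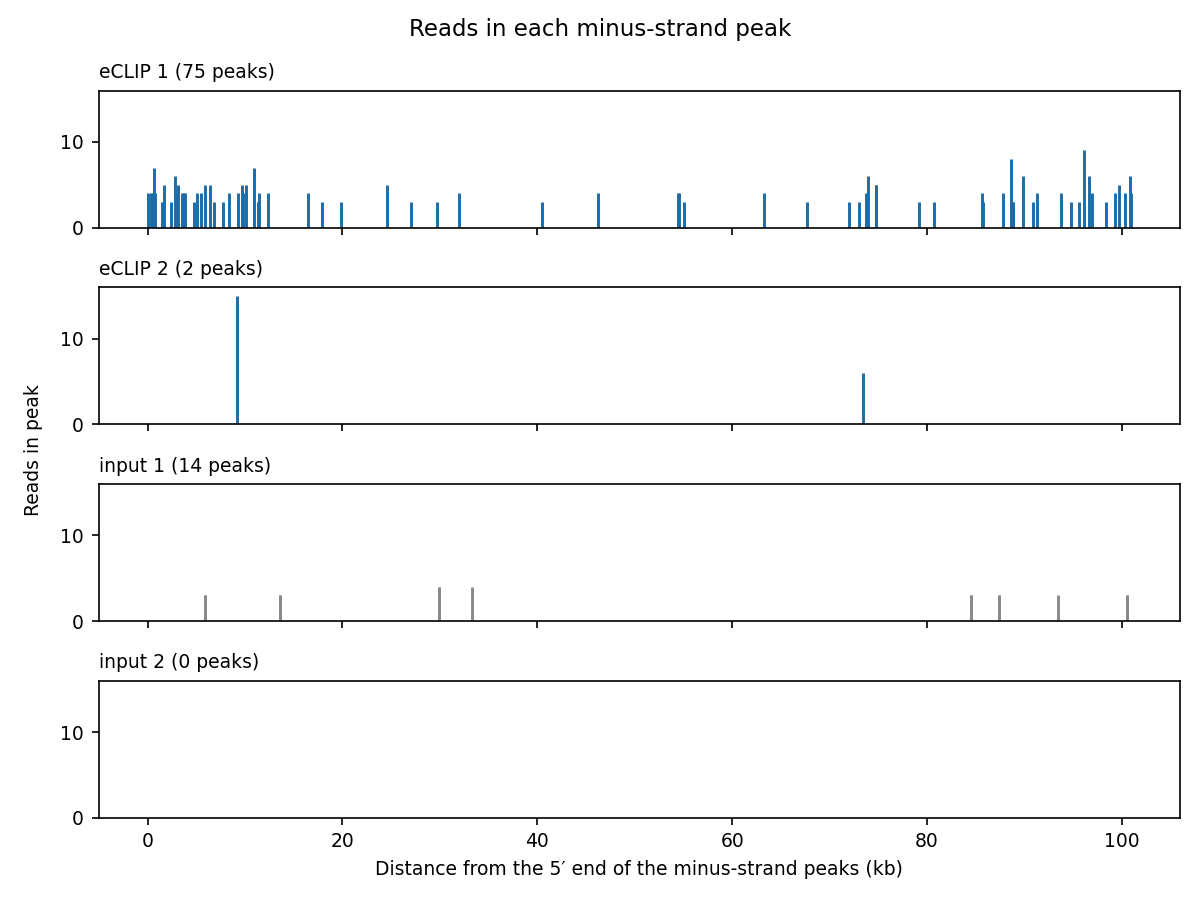
Reads in each minus-strand peak (vertical axis) against distance in kb from the 5′ end of the peaks (horizontal axis), with 1 panel per library and 1 line per peak. The 75 peaks of eCLIP 1 stay at 9 reads or fewer, eCLIP 2 has single peaks of 15 and 6 reads, the peaks of input 1 hold 3 or 4 reads, and input 2 has none.

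No peak of the window was shared by the 2 eCLIP libraries. Peaks were called overlapping when they had at least 1 base in common on the same strand. Of the 77 eCLIP 1 peaks in the window, 0 overlapped a peak of eCLIP 2, against 2.91% over the whole list, and of the 2 eCLIP 2 peaks 0 overlapped a peak of eCLIP 1, against 33.0%. The count of peaks common to the eCLIP libraries and free of input peaks was therefore 0 on each strand, where the whole list of eCLIP 1 had 2.48%. With 2 peaks in eCLIP 2, counts of this kind could hardly be other than small. No site had a peak in all 4 libraries.

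The one site shared by any pair of libraries joined eCLIP 1 to input 1. The eCLIP 1 peak chr15:25678167-25678191, with 5 reads, shared 1 base with the input 1 peak chr15:25678159-25678167 and 24 bases with the input 1 peak chr15:25678168-25678195, each of 3 reads. That made 1 of 77 eCLIP 1 peaks, against 1.53% over its list, and 2 of 15 input 1 peaks, against 12.7% over its list, or 7631 of 60227. Both shares were near those of the lists. The other input 1 peaks of the minus strand lay 110 to 1297 bases from the nearest eCLIP 1 peak, and over all 14 the median distance was 356.5 bases.

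Along the span, the peaks of eCLIP 1 gathered at both ends. With the span cut into 10 equal parts from the 5′ end, the first 2 parts held 34 of the 75 peaks, or 45.3% (34.6 to 56.6), and the last 2 held 23, or 30.7% (21.4 to 41.8). The 6 parts between them held 18 peaks, or 24.0% (15.8 to 34.8). In eCLIP 1 over the 6536 genes that had 20 peaks or more and spanned 5 kb or more, the corresponding shares were 28.5%, 17.0% and 54.5%. The counting interval of the middle parts did not reach the share over all genes, and the difference was not tested. That interval treats the peaks of 1 gene as independent, and the share over all genes pools their peaks. The spread between genes was not measured, so the interval does not show that the profile is unusual. The span begins and ends at a peak by its definition, which places at least 1 peak at each end. The profile along spans was taken up after earlier results of these data were known.

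Input 1 had few peaks from which to read a profile. Its first 2 parts held 4 of 14 peaks, or 28.6%, against 24.0% over all genes in that library, its middle 6 held 3, or 21.4%, against 53.4%, and its last 2 held 7, or 50.0%, against 22.5%. Because touching intervals of 1 site are listed apart, these 14 peaks were 8 sites once merged, of which 2, 2 and 4 lay in the first, middle and last parts. As sites the shares were 25.0% (7.15 to 59.1), 25.0% (7.15 to 59.1) and 50.0% (21.5 to 78.5). In each part this interval held the share of eCLIP 1. It also held the share over all genes, which counts peaks without merging. By unmerged peaks the intervals were 11.7 to 54.6%, 7.57 to 47.6% and 26.8 to 73.2%, and each again held the share of eCLIP 1. Those of the middle and last parts did not hold the share over all genes, but they count touching pieces of 1 site as separate peaks. In eCLIP 2, 1 of the 2 peaks lay in the first 2 parts and 1 in the middle. Whether the position of the eCLIP 1 peaks differs from that of the input was thus not resolved at these counts.

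**Figure D4:**
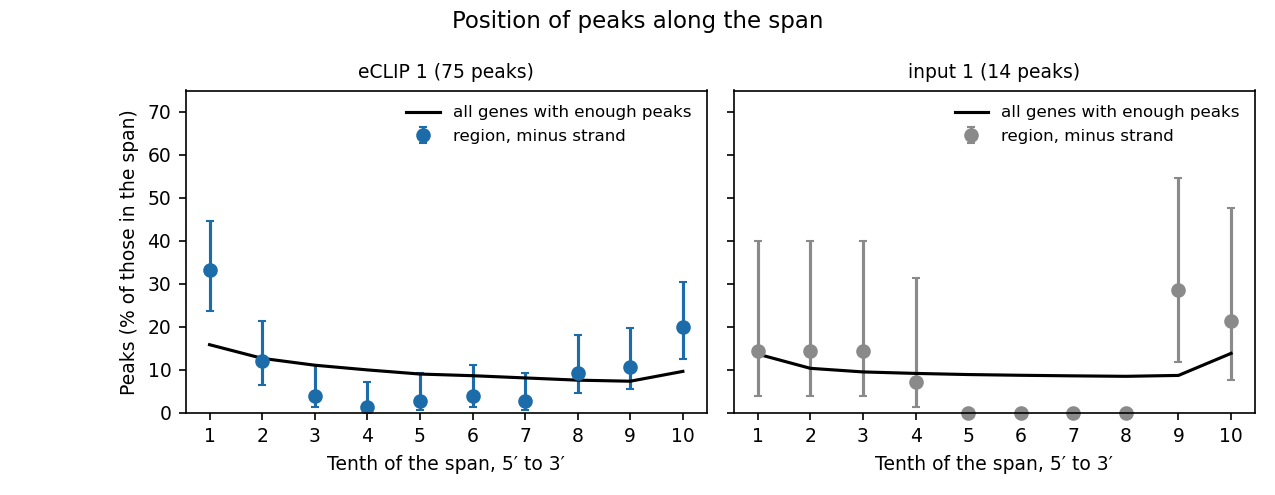
Percent of the minus-strand peaks in each of 10 equal parts of their span, from 5′ to 3′, in eCLIP 1 (left) and input 1 (right), with 95% Wilson intervals where a part held a peak; the black line is the same over 6536 genes. The first part holds 33.3% of the eCLIP 1 peaks, against 15.9% over all genes, parts 3 to 7 lie under the line in eCLIP 1, and parts 5 to 8 hold no peak of input 1.

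Neighbouring peaks of eCLIP 1 were separated by a median of 554.5 bases. In the middle of the span 3 gaps exceeded 8 kb: 8161 bases from position 25620814, 8223 bases from 25629609 and 8490 bases from 25643633. Input 1 had no peak in these gaps except that at chr15:25650800-25650825, in the last of them, and eCLIP 2 had none.

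By 10-kb bins, those with most peaks on the minus strand lay at the ends of the span, and 4 are given because 2 tied in the third place. The bin from 25670001 to 25680000 held 17 and 1 peaks in eCLIP 1 and eCLIP 2, against 4 and 0 in input 1 and input 2. The bin from 25590001 to 25600000 held 10 and 0 against 5 and 0. The bin from 25580001 to 25590000 held 12 and 0 against 2 and 0, and the bin from 25680001 to 25690000 held 14 and 0 against 0 and 0. These 4 bins were the ones with the 10 peaks needed for the fit, among 20868 in the genome, and limma called 0 of them, as it called 0% of all bins in either direction. Before adjustment, at 0.05, it had 0 of the 4, against 8.66% of all bins. Their log2 differences, in the order given, were 0.09 (SE 0.55), -0.44 (SE 0.54), -0.06 (SE 0.38) and 0.34 (SE 0.32), with adjusted p-values of 0.965, 0.794, 0.962 and 0.772. The eCLIP shares both exceeded the input shares in 0 of the 4, against 26.8% of all bins tested. The bin from 25610001 to 25620000, which was singled out after its values were seen and had too few peaks for the fit, was the one where they did, at 0.109 and 0.255 per 10000 in eCLIP against 0 and 0 in the inputs.

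Set against other genes, the density of peaks on the minus strand was not extreme. In eCLIP 1 the span held 0.743 peaks per kb, against a median of 0.896 over the 6536 genes, and 38.6% of those genes had a lower density. In eCLIP 2 it held 0.0198 peaks per kb, against a median of 0.0473. In input 1 it held 0.139 peaks per kb, against a median of 0.0857, and 69.3% of genes were lower. In eCLIP 1, 1710 of the 15839 listed genes had 75 peaks or more, and the 75 peaks stood above the median of 53 for the 110 minus-strand stretches of 630 kb on chromosome 15.

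The numbering of the peaks had gaps for this gene. Peaks within a gene are numbered from 0, and those of the minus strand in eCLIP 1 ran to number 99 with 25 numbers missing. In eCLIP 2 the numbers were 0 and 2, so 1 was missing, and in input 1 the numbers 0 to 13 were all present. What set the missing numbers apart is not given in the sources used here.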

How the data were processed

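Peak lists of 2 eCLIP libraries and 2 size-matched inputs were used. Per the submitters' processing notes, the tools were cutadapt, STAR and SAMtools and the build hg19; for versions, peak caller and annotation nothing is given in the sources used. The authors deposited 1 list per library, with an interval, a p-value and a score that follows the p-value for each peak. Peaks of the window were taken by position, each distinct interval once, with coordinates counted from 1. Genes and strand-specific 10-kb bins with at least 10 peaks were fitted in limma (3.58.1, R 4.3.3) on log2(peaks per 10000 + 0.5), without the replicate number, with Benjamini-Hochberg adjustment at 0.05. The scale understates changes of features with few peaks. The fit was tested on simulated data. The simulated counts had no spread between libraries beyond counting error, so that test does not show how the fit performs on these libraries. Overlaps and intervals were computed in Python 3.11.15 with SciPy 1.17.1. Named were the identifier with most peaks on each strand, shared peaks, the peaks with most reads and the 3 fullest bins per strand; other peaks were named after their values were seen. The window, lists and tests were chosen with earlier results of these data known. Same-numbered eCLIP and input libraries deviated together from their group means (r = 0.392 across genes, which are not independent replicates), but the labels do not say that a number marks a shared batch, and 2 pairs do not settle it. Number 1 also marks the longer list in both groups, and the part of list length in this r was not tested. No sequence of hg19 was used here.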

Additional observations from a re-analysis of the deposited data

How the results depend on the processing

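The minus-strand difference in shares (0.31 on the log2 scale) kept its sign when every line was counted, touching peaks were merged, reads were counted, lists were cut to equal length, or peaks were limited to a p-value of 0.001 (1.91 at most). The exact test of 2 libraries against 2 could give no call under any of them. Leaving out 1 library moved it between -0.94 (without input 2) and 1.55 (without input 1), with -0.23 without eCLIP 1. The limma value of the gene is this same difference, so it reversed in the same 2 fits. The plus-strand difference (-0.15) ranged from -0.353 to 0.0603 with 1 library left out, the 0.0603 without input 1, and with lists of equal length it was -0.77; at the p-value limit no plus-strand peak was left, so no value was had. The counts of peaks in both eCLIP libraries and neither input stayed at 0 on both strands in all 5 alternatives run. None of the 5 could raise them, since the eCLIP lists had no base in common in the window and no alternative adds bases. These zeros are therefore no sign of robustness. With the replicate number as a block, limma called 0 of the window's genes and 0 of its bins, and the gene's adjusted p was 0.916, against 0.994 without it. Over all genes the block moved the calls to 5 higher and 1 lower, and over all bins to 1 and 51. With 1 library left out, limma called between 0 and 1 of the window's bins. The 1 was the bin from 25680001 (log2 difference 0.69) without eCLIP 2, a fit that also called many bins outside the window. Such a call does not set the bin apart. In that fit a lone eCLIP library is assumed to vary like 2 inputs that both lie at 0 in this bin. All 14 peaks of the bin came from eCLIP 1, so the bin entered the fit through that library alone. Without eCLIP 1, and at the p-value limit, no bin of the window had enough peaks. Single bins changed sign without 1 library: the bin from 25580001 ranged from -0.43 to 0.30 (0.24 without eCLIP 2 and 0.30 without input 1), the bin from 25590001 from -1.15 to 0.26 (without input 1), and the bin from 25670001 from -0.52 (without input 2) to 0.70. The share of peaks in the middle of the span lay between 22.3% and 24.0% in eCLIP 1 and between 21.4% and 26.7% in input 1 by peaks, reads or merged peaks, alternatives chosen after seeing the data. The segments of the plus-strand peaks did not change, and could not, since those peaks formed 1 site in each list that had any. Depth is unknown, and with 2, 1 and 0 peaks in several lists, no difference between eCLIP and input could be resolved here.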
